A study of Mus musculus with 10 samples.

Results

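The 38 genes described here encode MYC, a transcription factor, and 37 proteins that build ribosomes. They were taken by gene symbol from a table of 55276 genes, and all 38 were found. By role they comprise Myc, 7 genes of RNA polymerase I and the nucleolus, 4 of box C/D and 4 of box H/ACA small nucleolar ribonucleoproteins, 8 factors of the small ribosomal subunit and 14 of the large subunit. All 38 were above the listed 0 in at least 2 libraries, the filter used for the 17155 genes tested.

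RNA came from sorted stomach corpus cells of C57BL/6 mice aged 6 to 8 weeks, all of which carried the Iqgap3-2A-tdTomato reporter, a red fluorescent protein expressed together with the scaffold protein Iqgap3. The mice were Runx3 WT or carried Runx3 R122C, an amino acid change in the transcription factor RUNX3, and the labels do not say whether R122C was heterozygous or homozygous. Living EpCAM-positive cells were divided by FACS into Iqgap3-high cells (IQ3pos) and Iqgap3-low or negative cells (IQ3neg), with 3 WT and 2 R122C libraries of each fraction. Every one was a pool of 3 mice, or of 4 in the WT replicate 2 libraries of both fractions, so the spread between libraries is a spread between pools, and a gene expressed in fewer cells cannot be told apart from one expressed less per cell.

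Ribosomes are assembled in the nucleolus. RNA polymerase I makes the long ribosomal RNA precursor, box C/D particles guide its methylation and box H/ACA particles its pseudouridylation, and separate sets of factors fold, cut and mature the precursors of the small and the large subunit. MYC is known to raise transcription of many of these genes and of ribosomal RNA, and dividing cells in renewing epithelia generally need more new ribosomes than resting ones. IQGAP3 is a marker of proliferating cells, and the gland isthmus is where corpus epithelium divides.

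The values are log2 CPM, read counts scaled to a common library size, in which a gene below 1 CPM is listed at 0. In these libraries 1 CPM stood for 47.4 to 264.8 reads. One library stood apart. In WT IQ3neg replicate 1 the 10 most abundant genes held 57.7% of the listed reads and Clps alone, which encodes pancreatic colipase, held 32.2%, against 9.24% to 12.9% elsewhere in IQ3neg. The median of genes above 0 in all libraries was 4.20 there and 5.09 to 5.32 in the remaining IQ3neg libraries. The fractions differed too. The 10 most abundant genes held 25.0% to 33.4% in those remaining IQ3neg libraries and 10.6% to 19.7% in IQ3pos, where Clps held 0.32% to 2.92%. A smaller share of the listed reads was thus left for all other genes in IQ3neg.

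The 38 genes were higher in IQ3pos than in IQ3neg as a group. Their median level in a library was 5.34, 5.86 and 5.80 in WT IQ3pos and 6.13 and 5.68 in R122C IQ3pos, and 3.24, 4.95 and 5.04 in WT IQ3neg and 4.92 and 4.85 in R122C IQ3neg. No IQ3neg library reached the lowest IQ3pos library. Together the 38 genes took 0.255% to 0.410% of the listed reads in IQ3pos and 0.0694% to 0.235% in IQ3neg, and those ranges did not overlap either.

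**Figure D1:**
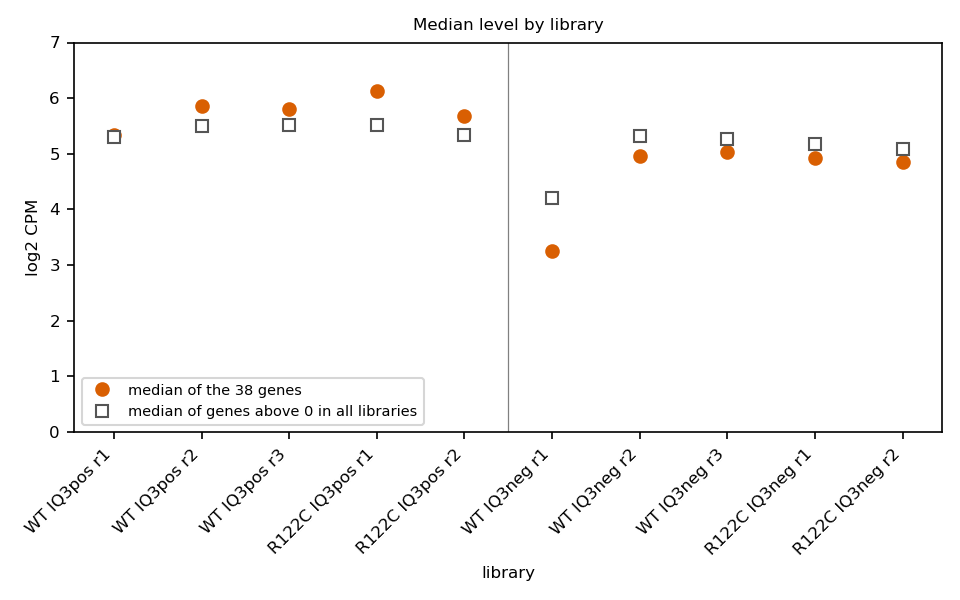
Median log2 CPM in each of the 10 libraries (r, replicate) of the 38 genes (filled circles) and of genes above 0 in all libraries (open squares). The IQ3pos libraries lie at 5.34 to 6.13 for the 38 genes and the IQ3neg libraries at 3.24 to 5.04, with WT IQ3neg replicate 1 lowest on both measures.

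Averaged with equal weight over WT and R122C, 5 libraries against 5, the median log2 difference of the 38 genes was 1.12, against 0.11 over all 17155 genes tested. Of the 38, 33 were above 0, against 55.7% of all genes. Adjusted for all genes tested (limma, Benjamini-Hochberg), Brix1, Wdr12 and Pa2g4 rose and none of the 38 fell, which is 3 of 38 beside a background of 1.67% called higher and 2.57% called lower. At an unadjusted p under 0.05, 21 of the 38 were higher and none lower, against 10.9% and 9.08% of all genes. In 6 genes (Gar1, Dkc1, Brix1, Wdr12, Pa2g4 and Ncl) every IQ3pos library was above every IQ3neg library, against 5.74% of all genes, and in none was the reverse true, against 3.18%.

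With a block for the replicate number, which marks the libraries that deviate together, 9 of the 38 rose (Brix1, Nop58, Wdr12, Npm1, Dkc1, Nhp2, Ncl, Pa2g4 and Nop56), beside a background of 2.78% called higher and 2.4% lower. IQ3pos was above IQ3neg in all 5 numbered pairs for 22 of the 38 genes, against 15.8% of all genes, and below it in all 5 pairs for none, against 6.19%. The median pair difference of the 38 genes was 1.88, 1.10 and 0.91 in WT pairs 1, 2 and 3 and 1.01 and 0.75 in R122C pairs 1 and 2, with 30 to 35 of the 38 above 0 in each. Over all genes it was 0.30 in WT pair 1 and 0 in the other pairs, with 42.3% to 54.6% above 0.

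**Figure D2:**
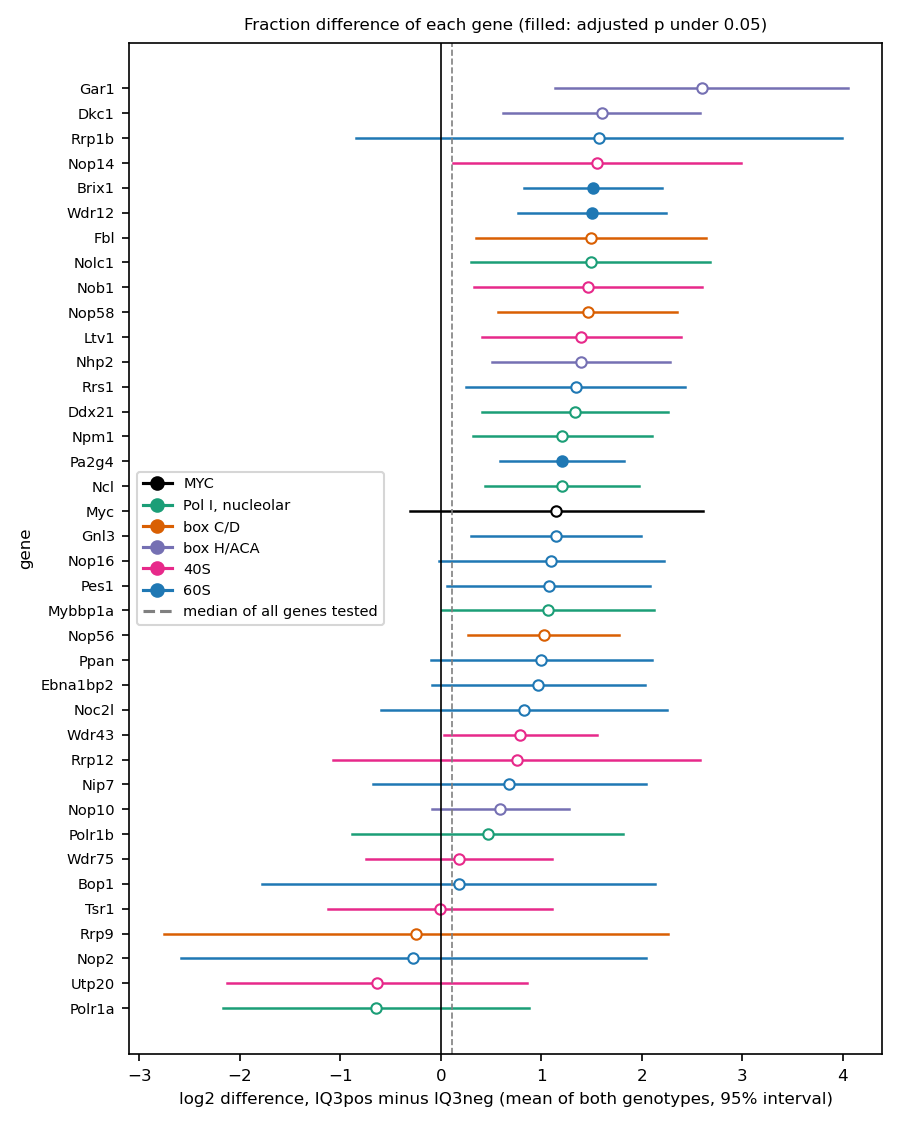
Log2 difference of IQ3pos minus IQ3neg, averaged over WT and R122C, for each of the 38 genes, with its 95% interval and colour by role; filled points passed an adjusted p of 0.05. The points run from Polr1a at -0.64 to Gar1 at 2.59, and the dashed line marks the median of all genes tested, 0.11.

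Per kilobase of merged exon sequence, the highest median levels in IQ3pos were those of Nhp2 (174 CPM per kb), Brix1 (127) and Npm1 (109), and the lowest were those of Polr1a (0.930), Rrp12 (0.777) and Utp20 (0.531). Myc ranked at 12 of the 38, with 31.5 CPM per kb in IQ3pos and 14.9 in IQ3neg. In IQ3neg, Nop10 (72.8) and Nhp2 (57.0) led. Neighbours in this order overlapped between libraries: Nhp2 spanned 121 to 223 CPM per kb in IQ3pos and Brix1 99.4 to 159. The order also depends on the annotation, because the exons of all annotated transcripts were merged, 10188 bases in Ncl and 11955 in Wdr12. Ncl, the highest of the 38 by mean log2 CPM in IQ3pos (8.73), ranked at 9 per kilobase, and Wdr12 at 22.

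Myc reached 5.15, 6.59 and 6.42 in the WT IQ3pos libraries and 6.52 and 5.02 in those of R122C. Its IQ3neg levels were 2.14, 5.65 and 5.34 for WT and 5.61 and 4.68 for R122C. The fractions overlapped, since 3 IQ3neg libraries lay above the lowest IQ3pos library, and the library lowest by far was WT IQ3neg replicate 1. The difference was 1.15 ± 0.670 (SE, adjusted p = 0.365), with a 95% interval from -0.31 to 2.61, and IQ3pos was above IQ3neg in 5 of 5 numbered pairs.

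MYC with its partner MAX is known to bind the E-box, CACGTG, whose reverse complement is the same word. RefSeq promoter windows (GRCm38.p6, 250 bases before to 50 after a gene's start) were given for 32 of the 38 genes, and those of Bop1, Fbl, Myc, Npm1, Rrp12 and Rrs1 were not. The word occurred in the window of 7 of the 32 (21.9%), against 11.3% of tested genes with a window and 8.09% of all genes with one, while median GC content was 58.2% in windows of the 38 genes and 59.7% in those of tested genes. The matches are shown 5′ to 3′ on the gene's strand with the E-box in capitals and up to 10 bases on each side, for comparison of their flanks.
Ltv1: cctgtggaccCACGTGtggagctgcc
Mybbp1a: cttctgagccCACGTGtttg
Nop2: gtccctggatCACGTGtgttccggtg
Pes1: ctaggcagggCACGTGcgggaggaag
Tsr1: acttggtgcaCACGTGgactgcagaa
Utp20: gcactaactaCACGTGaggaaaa
Wdr43: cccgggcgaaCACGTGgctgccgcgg
None of the 7 genes with the word was among the 3 that rose, and their differences ran from -0.64 in Utp20 to 1.40 in Ltv1. A match in this window says nothing of binding in these cells.

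Of the 7 genes of RNA polymerase I and the nucleolus, 6 had a difference above 0, none passed the test (limma) and 5 were at an unadjusted p under 0.05. Ncl, nucleolin, a nucleolar RNA-binding protein, was at 8.32, 8.56 and 9.01 in WT IQ3pos and 8.71 and 8.95 in R122C IQ3pos, and at 6.37, 7.66 and 8.01 in WT IQ3neg and 7.26 and 8.14 in R122C IQ3neg. Every IQ3pos library was above every IQ3neg library. The difference was 1.21 ± 0.352 (SE, adjusted p = 0.0773, and 0.0363 with the replicate block).

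Npm1, nucleophosmin, a chaperone of ribosome assembly, was at 7.77, 8.18 and 8.85 in WT IQ3pos and 7.86 and 8.54 in R122C IQ3pos, and at 5.58, 6.60 and 7.55 in WT IQ3neg and 6.94 and 8.00 in R122C IQ3neg. Only R122C IQ3neg replicate 2 overlapped the IQ3pos libraries. The difference was 1.21 ± 0.409 (adjusted p = 0.121, and 0.0309 with the block). Polr1a, the largest subunit of the polymerase, was at 3.85, 3.46, 3.97, 2.77 and 0 in IQ3pos and at 4.03, 3.58, 3.46, 3.52 and 1.95 in IQ3neg, in the same order of libraries. The lowest values in both fractions were those of R122C replicate 2, and IQ3pos was above IQ3neg in only 1 of 5 pairs (difference -0.64 ± 0.697, adjusted p = 0.639). Polr1b, the second largest subunit, was at 3.66, 3.06, 4.92, 3.32 and 4.62 in IQ3pos and at 3.16, 2.75, 4.07, 4.44 and 2.75 in IQ3neg. The fractions overlapped throughout (0.47 ± 0.620, adjusted p = 0.711). Nolc1, a nucleolar phosphoprotein, Ddx21, a helicase, and Mybbp1a, a nucleolar regulator, had differences of 1.49, 1.33 and 1.07.

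**Figure D3:**
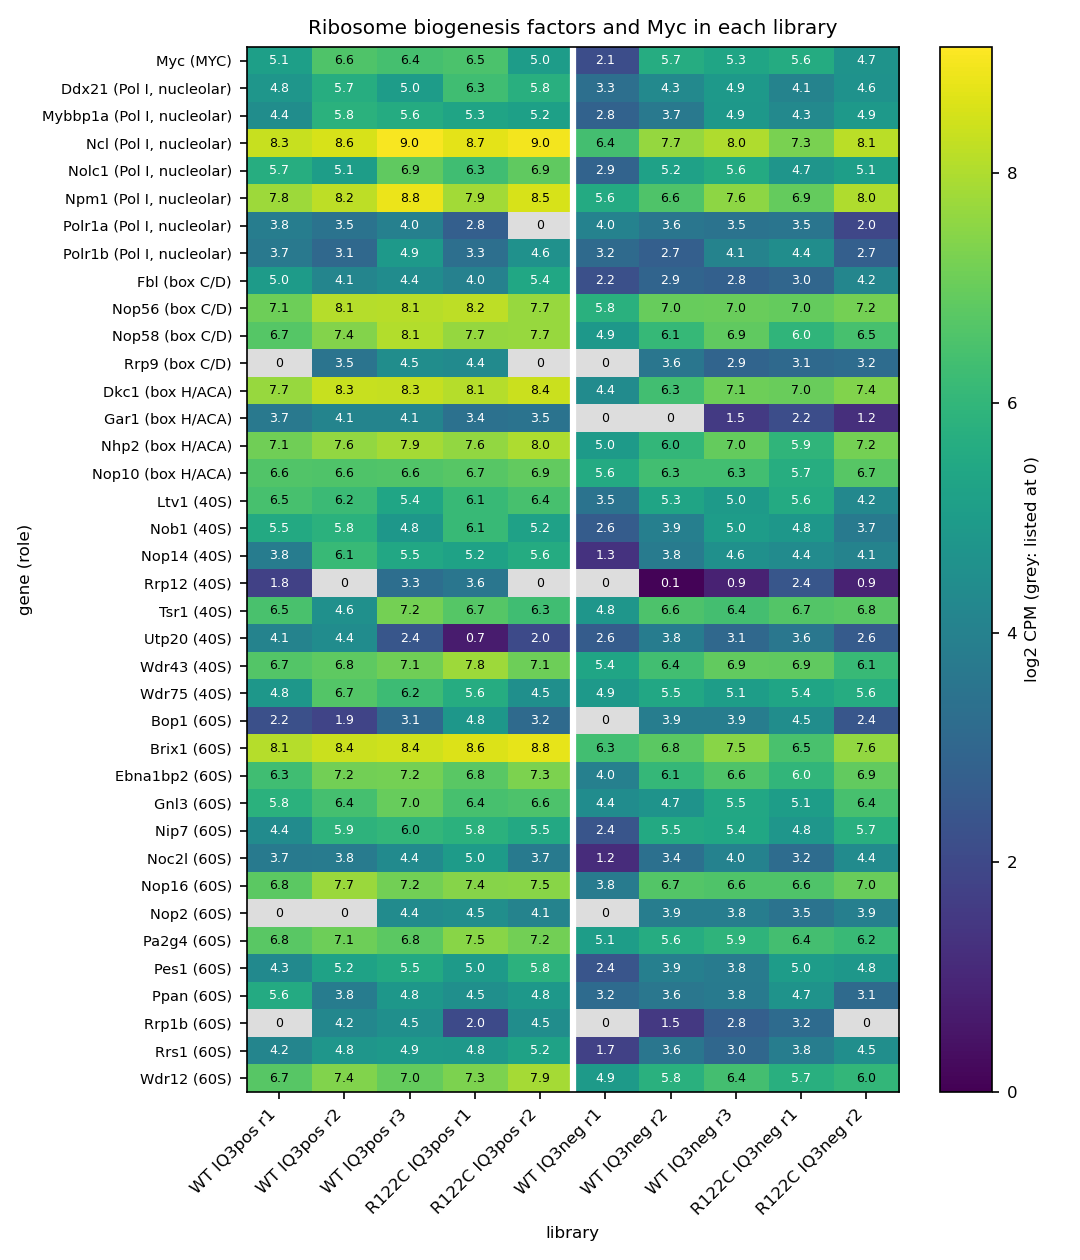
Log2 CPM of each of the 38 genes, ordered by role, in each library, with IQ3pos libraries left of the white line and IQ3neg libraries right of it; grey cells are listed at 0. Most rows are brighter on the left, and WT IQ3neg replicate 1 is the darkest column, with 6 genes listed at 0.

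Of the 4 box C/D genes, 3 had a difference above 1 and an unadjusted p under 0.05, and none passed the test after adjustment. Nop58, a core scaffold protein, was at 6.70, 7.40 and 8.06 in WT IQ3pos and 7.67 and 7.69 in R122C IQ3pos, and at 4.85, 6.11 and 6.87 in WT IQ3neg and 5.95 and 6.45 in R122C IQ3neg. WT IQ3neg replicate 3 was the only IQ3neg library to reach the IQ3pos range. The difference was 1.46 ± 0.408 (adjusted p = 0.0690, and 0.0180 with the block). Nop56, its partner, was at 7.11, 8.08, 8.14, 8.20 and 7.70 in IQ3pos (3 WT, then 2 R122C) and at 5.76, 6.99, 7.04, 6.96 and 7.21 in IQ3neg. WT IQ3pos replicate 1 lay within the IQ3neg range (1.02 ± 0.343, adjusted p = 0.118, and 0.0463 with the block). Fbl, fibrillarin, the methyltransferase, was at 4.99, 4.13, 4.42, 4.00 and 5.42 in IQ3pos and at 2.22, 2.93, 2.78, 3.02 and 4.18 in IQ3neg, where R122C IQ3neg replicate 2 alone overlapped the IQ3pos libraries (1.49 ± 0.525, adjusted p = 0.132). Rrp9, a factor bound to the U3 particle, was listed at 0 in 3 libraries and differed by -0.25 ± 1.15.

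The 4 box H/ACA genes included the largest difference of the 38; none passed the test after adjustment, and 3 were at an unadjusted p under 0.05. Gar1, a core protein of the particle, was at 3.67, 4.11 and 4.11 in WT IQ3pos and 3.39 and 3.48 in R122C IQ3pos, and was listed at 0 in WT IQ3neg replicates 1 and 2, with 1.54 in replicate 3 and 2.16 and 1.22 in R122C IQ3neg. Every IQ3pos library was above every IQ3neg library. The fitted difference of 2.59 ± 0.668 (adjusted p = 0.0505) takes the listed 0 as a value, so its size depends on the floor of the table. Gar1 passed without the intensity trend (adjusted p = 0.00882), with array weights (0.0363) and on log2(CPM + 1) (0.0462). In this comparison, averaged over the genotypes, it did not pass with the replicate block, centring on the library median, trimmed-mean scaling or log2(CPM + 0.5). In WT alone Gar1 did not pass in the reported fit (limma, adjusted p = 0.0612), with the block or with array weights. It passed there with centring (limma, adjusted p = 0.0452), trimmed-mean scaling (0.0454), log2(CPM + 0.5) (0.0497), log2(CPM + 1) (0.0429) and without the trend (0.00982).

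Dkc1, dyskerin, the pseudouridine synthase, was at 7.69, 8.35 and 8.31 in WT IQ3pos and 8.10 and 8.36 in R122C IQ3pos, and at 4.39, 6.35 and 7.11 in WT IQ3neg and 7.04 and 7.36 in R122C IQ3neg. The fractions did not overlap (1.60 ± 0.450, adjusted p = 0.0704, 0.0313 with the block and 0.0399 with each library centred on its median). Nop10, the smallest core protein, was at 6.63, 6.61, 6.63, 6.74 and 6.92 in IQ3pos and at 5.57, 6.34, 6.34, 5.66 and 6.72 in IQ3neg. It had the smallest difference of the 4, with R122C IQ3neg replicate 2 inside the IQ3pos range (0.59 ± 0.312, adjusted p = 0.320). Nhp2, the remaining core protein, was at 7.12, 7.64, 7.87, 7.63 and 8.00 in IQ3pos and at 4.97, 6.03, 6.96, 5.94 and 7.21 in IQ3neg. Only R122C IQ3neg replicate 2 reached the IQ3pos range, and the difference was 1.40 ± 0.407 (adjusted p = 0.0773, and 0.0323 with the block).

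Of the 8 small-subunit factors, 6 had a difference above 0, 4 were at an unadjusted p under 0.05 and none passed the test. The median was 0.77. Utp20, a component of the early small-subunit precursor, was at 4.08, 4.43, 2.44, 0.68 and 2.04 in IQ3pos and at 2.63, 3.81, 3.09, 3.61 and 2.61 in IQ3neg. It was lower in IQ3pos in 3 of 5 pairs, and the lowest values were the R122C IQ3pos libraries (-0.64 ± 0.685, adjusted p = 0.635). Nop14, a factor of early precursor processing, Nob1, the nuclease that makes the mature end of the small-subunit RNA, and Ltv1, an export and maturation factor, had differences of 1.55, 1.46 and 1.40, each at an unadjusted p under 0.05. Wdr43, which had 0.79, was the other at that p, and the remaining factors Rrp12, Wdr75 and Tsr1 had 0.75, 0.18 and -0.01. In the annotation 32.3% of the exon bases of Tsr1 also belong to Srr on the other strand, and no source states whether reads were counted by strand, so those reads cannot be assigned to one gene.

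All 3 genes that passed the test belong to the large-subunit group of 14, in which 13 had a difference above 0 and the median was 1.09. Brix1, a factor of large-subunit assembly, was at 8.08, 8.38 and 8.44 in WT IQ3pos and 8.60 and 8.76 in R122C IQ3pos, and at 6.34, 6.80 and 7.49 in WT IQ3neg and 6.50 and 7.64 in R122C IQ3neg. Every IQ3pos library was above every IQ3neg library. The difference was 1.52 ± 0.315 (adjusted p = 0.0211), with a 95% interval from 0.83 to 2.20, a 2.86-fold higher level in IQ3pos.

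Wdr12, a subunit of the complex with PES1 and BOP1 that processes large-subunit RNA, was at 6.72, 7.38 and 6.96 in WT IQ3pos and 7.29 and 7.88 in R122C IQ3pos, and at 4.95, 5.79 and 6.39 in WT IQ3neg and 5.75 and 6.03 in R122C IQ3neg. The fractions did not overlap, and Wdr12 rose by 1.50 ± 0.337 (adjusted p = 0.0291). Pa2g4, a nucleolar growth regulator that binds ribosomes, was at 6.79, 7.08 and 6.81 in WT IQ3pos and 7.49 and 7.16 in R122C IQ3pos, and at 5.06, 5.64 and 5.90 in WT IQ3neg and 6.37 and 6.16 in R122C IQ3neg. The fractions did not overlap, and Pa2g4 rose by 1.21 ± 0.283 (adjusted p = 0.0344).

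These 3 calls come from the fit of all 10 libraries. All 3 also passed without WT IQ3neg replicate 1, without WT IQ3neg replicate 3 and without both WT replicate 1 libraries. In the other fits that left out 1 WT library, at least 1 of the 3 did not pass. All 3 passed with centring, trimmed-mean scaling, log2(CPM + 1), log2(CPM + 0.5), array weights and the replicate block. They also passed among genes above the listed 0 in all 10 libraries. Leaving out 1 library at a time, Brix1 passed in 5 of 10 fits (adjusted p 0.0158 to 0.111), Wdr12 in 3 (0.0172 to 0.138) and Pa2g4 in 2 (0.0161 to 0.137). No member passed without WT IQ3pos replicate 2 or 3. With a WT IQ3neg library left out, 1 passed without replicate 2, 6 without replicate 1 and 8 without replicate 3. All genes called higher moved too, from 286 with all libraries to 79 and 108 without WT IQ3pos replicates 2 and 3. They numbered 147, 514 and 395 without WT IQ3neg replicates 2, 1 and 3. Leaving out an R122C library left 1 library in its group, and the counts of members in those fits are not given. Without the intensity trend in limma none of the 3 passed (adjusted p 0.0555 for Brix1, 0.0606 for Wdr12 and 0.0633 for Pa2g4), and with no filter on low values Wdr12 did not (0.0508).

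The promoter windows of the 3 genes are shown because they carry the difference that passed, and none holds the E-box word; of the 3 Wdr12 windows the one nearest the annotated start is given (GRCm38.p6, minus strand, 5′ to 3′, Brix1 chr15:10485888-10486187, Wdr12 chr1:60098451-60098750, Pa2g4 chr10:128565885-128566184).
Brix1: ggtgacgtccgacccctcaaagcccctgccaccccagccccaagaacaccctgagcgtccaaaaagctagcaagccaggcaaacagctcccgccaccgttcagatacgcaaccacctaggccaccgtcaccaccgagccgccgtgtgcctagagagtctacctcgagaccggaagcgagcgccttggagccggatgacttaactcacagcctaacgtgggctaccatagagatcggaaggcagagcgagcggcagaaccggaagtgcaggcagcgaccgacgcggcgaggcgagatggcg
Wdr12: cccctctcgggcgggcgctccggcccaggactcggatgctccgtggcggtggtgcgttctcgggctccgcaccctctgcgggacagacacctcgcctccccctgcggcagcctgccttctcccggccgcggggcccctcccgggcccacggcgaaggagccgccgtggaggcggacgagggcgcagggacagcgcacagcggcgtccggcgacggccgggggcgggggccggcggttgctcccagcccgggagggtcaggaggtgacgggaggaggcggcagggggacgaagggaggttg
Pa2g4: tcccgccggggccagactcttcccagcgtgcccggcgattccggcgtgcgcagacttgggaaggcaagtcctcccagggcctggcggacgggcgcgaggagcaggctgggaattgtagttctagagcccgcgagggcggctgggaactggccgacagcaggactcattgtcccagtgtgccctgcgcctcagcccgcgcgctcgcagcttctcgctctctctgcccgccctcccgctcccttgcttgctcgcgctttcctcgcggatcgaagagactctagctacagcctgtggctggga
GC content of these windows was 63.3% in Brix1, 78% in Wdr12 and 68% in Pa2g4.

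Pes1 and Bop1, the partners of Wdr12, did not pass the test, and differences between the partners were not tested. Pes1 was at 4.33, 5.23, 5.54, 4.97 and 5.83 in IQ3pos and at 2.41, 3.91, 3.80, 5.02 and 4.80 in IQ3neg, with R122C IQ3neg inside the IQ3pos range (1.07 ± 0.464, adjusted p = 0.221). Bop1 was at 2.22, 1.86, 3.09, 4.83 and 3.15 in IQ3pos and at 0, 3.86, 3.86, 4.47 and 2.43 in IQ3neg, with no order between the fractions (0.18 ± 0.897, adjusted p = 0.937). Gnl3, nucleostemin, a nucleolar GTPase, was at 5.81, 6.43, 6.98, 6.45 and 6.56 in IQ3pos and at 4.44, 4.69, 5.46, 5.08 and 6.44 in IQ3neg. Only R122C IQ3neg replicate 2 lay among the IQ3pos values (1.14 ± 0.387, adjusted p = 0.121).

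Rrp1b, a nucleolar factor, had IQ3pos values of 0, 4.23, 4.54, 2.03 and 4.46 and IQ3neg values of 0, 1.51, 2.76, 3.19 and 0. The difference was 1.58 ± 1.11 (adjusted p = 0.452). Its values spanned the floor in both fractions, so the size of the difference depends on it. Nop2, an RNA methyltransferase, was at 0, 0, 4.39, 4.48 and 4.06 in IQ3pos and at 0, 3.87, 3.84, 3.48 and 3.94 in IQ3neg. The zeros were in WT libraries, and the values above 0 were 4.06 to 4.48 in IQ3pos and 3.48 to 3.94 in IQ3neg (-0.27 ± 1.06, adjusted p = 0.919). The other large-subunit genes, Rrs1, Nop16, Ppan, Ebna1bp2, Noc2l and Nip7, had differences from 0.68 in Nip7 to 1.34 in Rrs1. In Noc2l, 20.9% of the exon bases also belong to Samd11 on the other strand.

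Between the genotypes within a fraction, none of the 17155 genes passed the test (limma, 0% called in each direction and fraction), and no member did. In IQ3pos the median of R122C minus WT over the 38 genes was 0.22, against 0 over all genes, with 29 of the 38 above 0, against 45.7% of all genes. That median was 0.03 without WT IQ3pos replicate 1 and 0.41 without WT IQ3pos replicate 3. At an unadjusted p under 0.05, Polr1a (-2.37 ± 0.986, with 1 R122C library listed at 0) and Utp20 (-2.29 ± 0.968) were lower in R122C, and none of the 38 was higher, against 3.36% and 2.06% of all genes. In IQ3neg the median was 0.75, against 0.07 over all genes, with 36 of the 38 above 0, against 53.6% of all genes. However, the median of the 38 genes was 0.06 without WT IQ3neg replicate 1. Pes1 (1.54 ± 0.656) was the only member higher at an unadjusted p under 0.05 and none was lower, against 1.33% and 2.33% of all genes. Titles also carry a code of unstated meaning. Only 1 code occurs in both genotypes, with 1 library per group, and within it the median difference was 0.04 in IQ3pos, with 20 of 38 above 0, and 0.03 in IQ3neg, with 19 of 38. The 95% interval reached, as a median over the 38 genes, 1.55 on either side of the difference in each fraction.

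The fraction difference was computed in each genotype. In WT (3 against 3) the median of the 38 genes was 1.36, with 36 above 0 against 56% of all genes, and in R122C (2 against 2) it was 0.76, with 33 above 0 against 50.6%. It was 0.79 in WT without WT IQ3neg replicate 1. No member passed in either genotype, beside backgrounds of 0.606% called higher and 1.42% lower in WT and of 0.0291% and 0.291% in R122C. At an unadjusted p under 0.05, 20 members were higher in WT and 5 in R122C, and none was lower in either, against 10.4% higher and 8.21% lower of all genes in WT and 3.1% and 5% in R122C. With the replicate block, Npm1 (1.69 ± 0.306, adjusted p = 0.0352) and Dkc1 (2.17 ± 0.407, adjusted p = 0.0376) passed in WT, beside a background of 1.1% called higher. WT IQ3pos lay wholly above WT IQ3neg for 17 of the 38 and below it for none, against 13.2% and 8.07% of all genes, and R122C IQ3pos lay wholly above R122C IQ3neg for 21 and below it for 1, Utp20, against 21.7% and 14.6%. The difference of the differences, R122C minus WT, had a median of -0.50 over the 38 genes and -0.13 over all genes, and no gene passed (limma, 0% in each direction). No member was at an unadjusted p under 0.05, against 1.32% of all genes higher and 1.26% lower. The median was 0.09 without WT IQ3neg replicate 1, which is in the WT difference only.

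**Figure D4:**
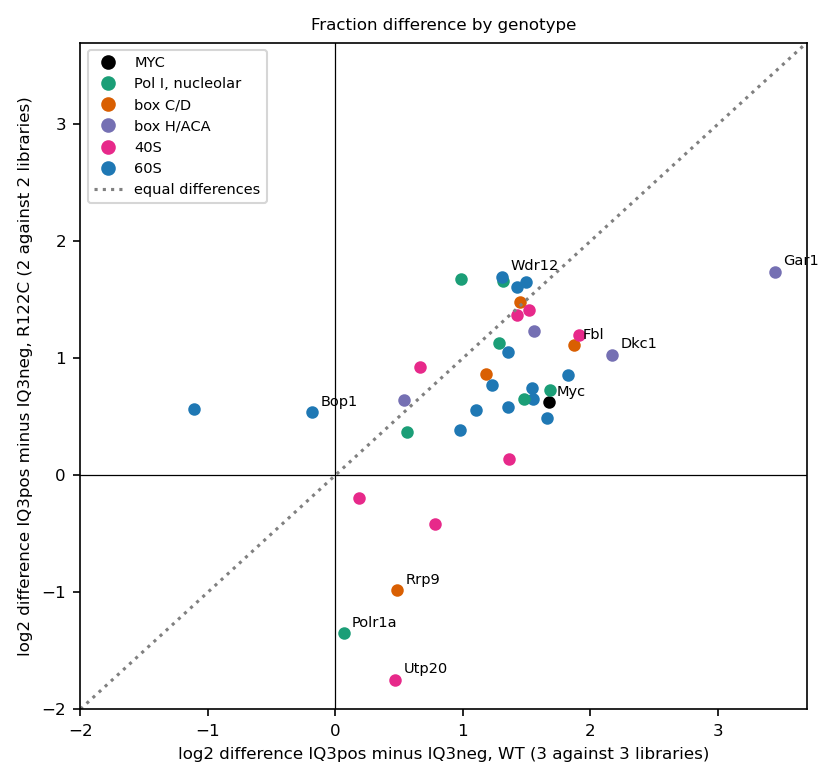
Log2 difference of IQ3pos minus IQ3neg in WT (x axis, 3 against 3 libraries) and in R122C (y axis, 2 against 2 libraries) for each of the 38 genes, coloured by role, with the line of equal differences dotted. Most points lie above 0 on both axes, and Polr1a, Utp20, Rrp9, Wdr75 and Tsr1 lie below 0 on the R122C axis.

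Other genes of the same pathway were counted from lists chosen by function, with earlier results of these data known. In the comparison averaged over the genotypes, none of the genes in these lists fell, and their counts stand beside the 1.67% of all genes that rose. Of 14 other genes of the RNA polymerase I machinery, 3 rose: Taf1d, a promoter factor (1.95, adjusted p = 0.0295), Polr1c, a subunit shared with RNA polymerase III (1.32, adjusted p = 0.0432), and Rrn3, the initiation factor (1.02, adjusted p = 0.0498), and the list's median was 0.83. Rrn3 did not pass with each library centred on its median (adjusted p = 0.178) or with trimmed-mean (TMM) scaling (0.159). Of 41 other small-subunit factors, Utp11 (1.99, adjusted p = 0.0372) and Fcf1 (1.10, adjusted p = 0.0459) rose, with a median of 0.70. Of 40 other large-subunit factors, Rpf1 rose (1.23, adjusted p = 0.0312), with a median of 0.49, and 1 of 40 is a share near that of all genes. With centring and TMM scaling Fcf1 (0.0941 and 0.0853) and Rpf1 (0.0925 and 0.0843) did not pass. Of 13 genes of the exosome and its cofactors, the nuclease complex that trims ribosomal RNA ends, 4 rose, Exosc6 to Exosc9, with a list median of 0.99. Exosc8 had 1.69 (adjusted p = 0.0110), and Exosc6 was listed at 0 in 4 of 5 IQ3neg libraries.

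Of 9 snoRNP assembly factors none passed (median 1.003, 5 higher at an unadjusted p under 0.05), and none of 9 snoRNA host genes did (median 0.44, 1 higher), against 10.9% of all genes higher at that p. Of 12 other MYC targets, Hspd1, a mitochondrial chaperone, rose (1.28, adjusted p = 0.0355; median 0.86). Of 11 genes of the MYC and MAX network, Mxd3, a MAX partner, rose (1.47, adjusted p = 0.0370), and the list's median was 0.00. With the replicate block, beside the 2.78% of all genes that then rose, the counts were 4 for the MYC targets, 2 for the large-subunit factors and 1 for snoRNP assembly. With 1 library left out at a time, Exosc8 passed in 8 of 10 fits, Exosc9 in 5, Taf1d, Rpf1 and Exosc7 in 4, Rrn3, Fcf1, Utp11 and Hspd1 in 3, and Mxd3, Polr1c and Exosc6 in 2. Of 23 snoRNA genes that lie inside 8 of the 38 genes, 5 reached 1 CPM in any library. Some of them share exon bases with their host on the same strand, and how such reads were counted is not stated.

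Markers of dividing cells and of differentiated cells moved with the fractions. Averaged over the genotypes, their counts stand beside 1.67% of all genes called higher and 2.57% called lower. The mitosis list, whose 20 genes include Top2a and Mki67, rose for 14 and its summed level was 2097 to 5750 CPM in IQ3pos and 134 to 944 in IQ3neg. The enteroendocrine list, hormone and neuroendocrine genes, fell for 12 of 12, with 230 to 516 CPM in IQ3pos, where 3 to 5 of the genes were listed at 0, and 11521 to 20339 in IQ3neg, where none was. Chief cell genes fell for 3 of 4, with 10321 to 13055 CPM in IQ3pos and 38461 to 95420 in IQ3neg, and pancreatic acinar genes fell for 5 of 8, with 3528 to 30671 CPM in IQ3pos and 97483 to 334175 in IQ3neg. Pit cell genes rose for 3 of 5, mucous neck genes rose for 1 of 4, tuft cell genes fell for 3 of 7, and no parietal cell gene of 7 passed. Of 5 epithelial genes, among them Epcam, the epithelial marker of the sort, none passed. Of these 5, 1 was higher at an unadjusted p under 0.05, against 10.9% of all genes, and all were above 0 in every library. Immune genes summed to 0 to 261 CPM in IQ3pos and 56.1 to 386 in IQ3neg, fibroblast and muscle genes to at most 27.5 and endothelial genes to at most 6.70. The part of these cell types in the differences of the 38 genes was not tested.

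The level of all genes also moved with the fractions. Centring each library on its median turned the all-gene median from 0.11 to -0.15 and that of the 38 genes from 1.12 to 0.72, which left the 38 genes 0.87 above all genes in place of 1.01, and Bop1 and Wdr75 then lay below 0. Under centring 4 of the 38 passed, Dkc1 being added, while all genes split into 283 higher and 738 lower, against 286 and 441 before.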

How the data were processed

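RNA of 10 sorted libraries was sequenced, and its levels were deposited by the authors as log2 CPM, 55276 genes in 1 table. The submitters' processing notes name the build GRCm38 (mm10) and the tools edgeR, Subread 2.0.0, featureCounts and STAR 2.7.1a. Library preparation followed PCR amplification, per the labels, and no source used here gives strandedness, filters or library scaling. From the values, genes below 1 CPM are listed at 0. The CPM below 300 are whole multiples of 1 step within 0.05 read for 100% of values, which gave the total used for scaling each library. The listed CPM summed to 1036659 to 1053749 per library, so these totals were smaller than the reads listed. PCR reads are not independent molecules.

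Differences were computed with limma 3.58.1 in R 4.3.3, fitting the 4 groups' means to the log2 values of the 10 libraries and moderating variances with an intensity trend (residual degrees of freedom 6, prior 6.01), two-sided tests, Benjamini-Hochberg adjustment over the 17155 genes that 2 or more libraries had above the listed 0, and a threshold of 0.05. The fit was run on simulated data with differences larger than that of any member averaged over the genotypes. Its power for smaller differences was not tested. The 6 comparisons were the fraction difference averaged over the genotypes, in WT and in R122C, the genotype difference in each fraction, and their interaction. Per kilobase levels used merged exons of GENCODE for GRCm38, and promoter windows came from RefSeq for GRCm38.p6.

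The labels give IQ3pos and IQ3neg libraries the same replicate numbers, or for WT replicate 3 the same title code, without saying that they come from the same mice. Deviations from group means correlated between libraries of the same number by 0.170, 0.131 and 0.110 in WT and 0.199 and 0.199 in R122C over 7404 genes, so the numbers were taken as pairs, from the data. With 2 libraries per group, the R122C values are equal by construction. P-values measure the spread between pools of mice.

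The members, roles and lists were chosen with earlier results of these data known, and the counts of numbered pairs were added after the values were seen. Values in every library are given for Myc, chosen core members of each role, members that passed, and the 3 largest and 3 smallest differences. Alternatives tried were median centring, trimmed-mean scaling, pseudocounts, filters, the intensity trend, array weights, the block, the title code as a term, and leaving out libraries.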

Additional observations from a re-analysis of the deposited data

How the results depend on the processing

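The median difference of the 38 genes between the fractions, averaged over the genotypes, stayed above 0 under every alternative run, and ran from 0.87 to 1.31 with 1 library left out. The count of members that passed was less stable. With 3 in the reported fit, 7 passed with array weights, 9 with the replicate block and 8 without both WT replicate 1 libraries. Among genes above the listed 0 in all 10 libraries, which leaves out members listed at 0 in any library, 8 passed. Without the intensity trend 1 passed (Gar1, and none of the 3), and with 1 WT library left out 0 to 8 did. All genes called higher numbered 286 in the reported fit, 589 with array weights, 477 with the block and 632 without both WT replicate 1 libraries. They numbered 541 of the 7404 genes above the listed 0 in all libraries, 177 without the trend, and 79 to 514 with 1 WT library left out. In WT, 0 passed in the reported fit, 2 with centring, with trimmed-mean (TMM) scaling and with the replicate block, 1 with log2(CPM + 1), with log2(CPM + 0.5), without the trend, with array weights and without both WT replicate 1 libraries, 3 above the listed 0 in all 10 libraries, and 0 to 1 with 1 library left out. All genes called higher in WT numbered 104 in the reported fit and 189 with the block. For the other settings in WT they are not given, so those member counts cannot be set beside a share of all genes. The cause of these shifts was not tested.

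The replicate block changed no other call of the 38 genes in the 6 comparisons. The title code as a term is the same model as the block for the fraction comparisons, and gave the same 9 and 2 by construction. All genes called numbered 727 in the reported fit, 1021 with centring, 1396 with array weights and 470 with no filter on low values. With 1 library left out they ran from 209, without R122C IQ3neg replicate 1, to 1164, without WT IQ3neg replicate 1.

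The median of R122C minus WT in IQ3neg, 0.75, was 0.122 with array weights, 0.0594 without both WT replicate 1 libraries and 0.0594 to 1.03 with 1 library left out. Differences that changed sign belonged to members near 0 or with values at the floor. Bop1 was at -0.0553 with centring, -0.0722 with TMM scaling, -0.33 with array weights and -0.42 without both WT replicate 1 libraries, and Wdr75 at -0.22 with centring and with TMM scaling. With 1 library left out, Bop1 ran from -0.47 to 0.69, Rrp9 from -1.34 to 0.84, Nop2 from -1.0035 to 0.0939, Rrp12 from -0.14 to 1.65, Wdr75 from -0.0952 to 0.46, Tsr1 from -0.28 to 0.37 and Polr1a from -1.34 to 0.0485.

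Count models in edgeR and DESeq2, planned as alternatives, were not run, because the deposited values are log2 CPM with a floor. The table lists nothing below 1 CPM, which limits what can be said of Gar1, Rrp1b, Nop2 and Rrp9.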
